A study of Homo sapiens with 9 samples.

Results

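The Notch genes described here number 10 and were followed across 9 libraries of MDA-MB-468, an established human breast adenocarcinoma line: the receptors NOTCH1, NOTCH2 and NOTCH3, the ligands JAG1, JAG2 and DLL1, and the target genes HES1, HEY1, HEY2 and NRARP. They were chosen by symbol, and all 10 were found among the 56809 genes of the count table. The cells carried the empty pSicoR vector (control), pSicoR with the short hairpin shLMO2-1, or pSicoR with shLMO2-2, another short hairpin. Each group has 3 libraries, with 200000 cells harvested for each. Every group thus carried the pSicoR backbone, and a hairpin group differs from control by its hairpin. No group carried a control hairpin, so an effect through LMO2 and an effect of carrying any hairpin cannot be told apart. LMO2, after which the hairpins are called, is a transcriptional cofactor with LIM domains. The labels do not say whether libraries of a group came from separate infections or cultures, so the p-values below measure the spread between these libraries, which may be technical.

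Notch signalling passes between touching cells. A Jagged or Delta ligand on the surface of a neighbouring cell binds a Notch receptor, which is then cut first by an ADAM protease and next by gamma-secretase. The freed intracellular part enters the nucleus, joins the DNA-binding protein RBPJ and a Mastermind coactivator, and turns on genes such as those of the HES and HEY repressors and the feedback inhibitor NRARP. In the breast, the pathway is known for its part in the choice of luminal fate and for its activity in many triple-negative tumours, the class to which MDA-MB-468 belongs.

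The DNA near the start of the members was searched for the core motif of RBPJ. HES1 and HEY2 are printed because they were the only members searched that held this motif in their promoter window. RefSeq promoters (GRCh38.p14, 250 bases before to 50 after the start) were at hand for 8 of the 10 members, all but DLL1 and HEY1. They were searched on both strands for TGGGAA, for the longer GTGGGAA that contains it, and for CACGTG, the E-box that HES and HEY proteins are known to bind. TGGGAA was found in 2 of the 8 windows, a share close to the 24.0% of all 35116 promoters of that length. GTGGGAA was found in the same 2 windows, against 6.25% of all promoters, and CACGTG in 0 of 8, against 7.26%. Below, capitals mark TGGGAA or, on the other strand, TTCCCA.
HES1, chr3:194136034-194136113, plus strand: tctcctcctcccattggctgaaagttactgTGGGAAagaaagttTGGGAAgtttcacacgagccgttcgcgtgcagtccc
HEY2, chr6:125749389-125749454, plus strand: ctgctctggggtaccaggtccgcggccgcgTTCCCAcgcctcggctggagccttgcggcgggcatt
The HES1 stretch holds 2 copies in the same orientation, which begin 84 and 70 bases before the start. The HEY2 stretch holds 1 copy on the other strand, 213 bases before the RefSeq start. This stretch lies within the HEY2 gene of GENCODE 29, which begins at 125747664. A further match in HEY2 spans the start itself, beginning 3 bases before it, and is not printed. These matches are descriptions of the letters in each window and not evidence of binding.

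Library totals lay between 15494486 and 23069456 counts, with the shLMO2-2 libraries the deepest. LMO2 had 4, 35 and 19 counts in control replicates 1 to 3 and between 1 and 6 counts in the 6 hairpin libraries, so control replicate 1 lay within the range of the hairpin libraries. On the first principal component of log2 CPM the controls lay at -42.6, -18.2 and -20.6 and the hairpin libraries between -0.0825 and 28.9, with control replicate 1 standing apart. CPM is the count scaled to the TMM-adjusted library total, the usual depth-corrected level of a gene. The 7 epithelial markers summed to 12700 to 13900 CPM in control, 14800 to 15700 CPM in shLMO2-1 and 14100 to 15700 CPM in shLMO2-2. In the same order, 5 endothelial markers summed to 4.97 to 12.6, 12.3 to 16.4 and 7.91 to 10.1 CPM, 5 fibroblast markers to 9.79 to 14.2, 12.4 to 17.1 and 14.4 to 16.5 CPM, and 4 leukocyte markers to 0.687 to 0.812, 1.23 to 2.25 and 1.17 to 2.13 CPM. The epithelial and leukocyte sums of both hairpins lay above control, but the single markers did not move together. KRT8 was at 1700 to 2000 CPM in control and 2230 to 2760 CPM in the hairpin libraries, while CDH1 was at 311 to 326 CPM in control and lower, at 282 to 308 CPM, in the hairpin libraries. EPCAM was at 424 to 437 CPM in control and 369 to 425 CPM in the hairpin libraries. EGFR, the largest part of the epithelial sum in every library, was at 4780 to 6260 CPM in control. It was at 7070 to 7940 CPM in shLMO2-1 and 5560 to 6490 CPM in shLMO2-2. KRT5 was at 3160 to 3240 CPM in control, lower in shLMO2-1 (2480 to 2870 CPM) and at 3130 to 3640 CPM in shLMO2-2. Of the leukocyte markers, CD68 was at 0.582 to 0.666 CPM in control and 1.12 to 2.14 CPM in the hairpin libraries, and PTPRC was at most 0.348 CPM in any library. The part of these markers in the results was not tested. COL3A1, CD3E and LYZ were at 0 counts in all 9 libraries. In bulk RNA, fewer expressing cells and less RNA per cell cannot be told apart.

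Of the 10 members, 9 passed the filter on low counts and DLL1 did not. With edgeR's quasi-likelihood test and an adjusted p under 0.05 over all 14709 genes tested, shLMO2-1 changed 4 of the 9, which were NOTCH1 and JAG2 (higher) and JAG1 and HEY2 (lower). The background for that comparison was 8.42% of all genes tested, against 44.4% of the members (4.54% of all genes higher and 3.88% lower). In shLMO2-2, 4 of the 9 changed, NOTCH1 and NOTCH3 (higher) and JAG1 and HEY2 (lower), against a background of 8.97% (4.94% higher and 4.04% lower). With both hairpins averaged, 5 of the 9 changed, against a background of 12.4% (6.47% higher and 5.93% lower): NOTCH1, NOTCH3 and JAG2 were higher and JAG1 and HEY2 lower. NOTCH1, JAG1 and HEY2 thus changed in the same direction in both hairpins. The hairpin comparisons use the same 3 controls, so their likeness is not independent. The members were chosen with earlier results of these data known, so the shares of members called are descriptions. Without single libraries, 1 to 4 members were called in shLMO2-1, 2 to 4 in shLMO2-2 and 4 to 5 in the mean. The libraries of hairpin and control did not overlap in 5 of the 9 members in shLMO2-1 (28.3% of all genes tested), in 5 of the 9 in shLMO2-2 (29.9%) and in 4 of the 9 for all 6 hairpin libraries (16.7%). Under plain library totals the members called were again 2 higher and 2 lower in each hairpin and 3 higher and 2 lower in the mean. The same scaling moved the higher share of all called genes in shLMO2-1 (53.9% to 41.8%), shLMO2-2 (55% to 40.5%) and the mean (52.2% to 38.2%).

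Because control replicate 1 stands apart on the first principal component and has few LMO2 counts, each difference was also computed without it. In shLMO2-1, NOTCH1 (0.46, edgeR adjusted p 0.00821), JAG1 (-0.37, edgeR adjusted p 0.0313), JAG2 (0.73, edgeR adjusted p 0.0382) and HEY2 (-1.24, edgeR adjusted p 0.0334) were called as before. In shLMO2-2, NOTCH1 (0.50, edgeR adjusted p 0.00587), NOTCH3 (0.32, edgeR adjusted p 0.0332), JAG1 (-0.58, edgeR adjusted p 0.00439) and HEY2 (-1.19, edgeR adjusted p 0.0404) were called as before. In the mean of both, NOTCH1 (0.48), NOTCH3 (0.27), JAG1 (-0.48) and HEY2 (-1.21) kept their calls, with edgeR adjusted p of 0.00332, 0.0363, 0.0046 and 0.0164, and JAG2 lost its call (0.58, edgeR adjusted p 0.055).

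**Figure D1:**
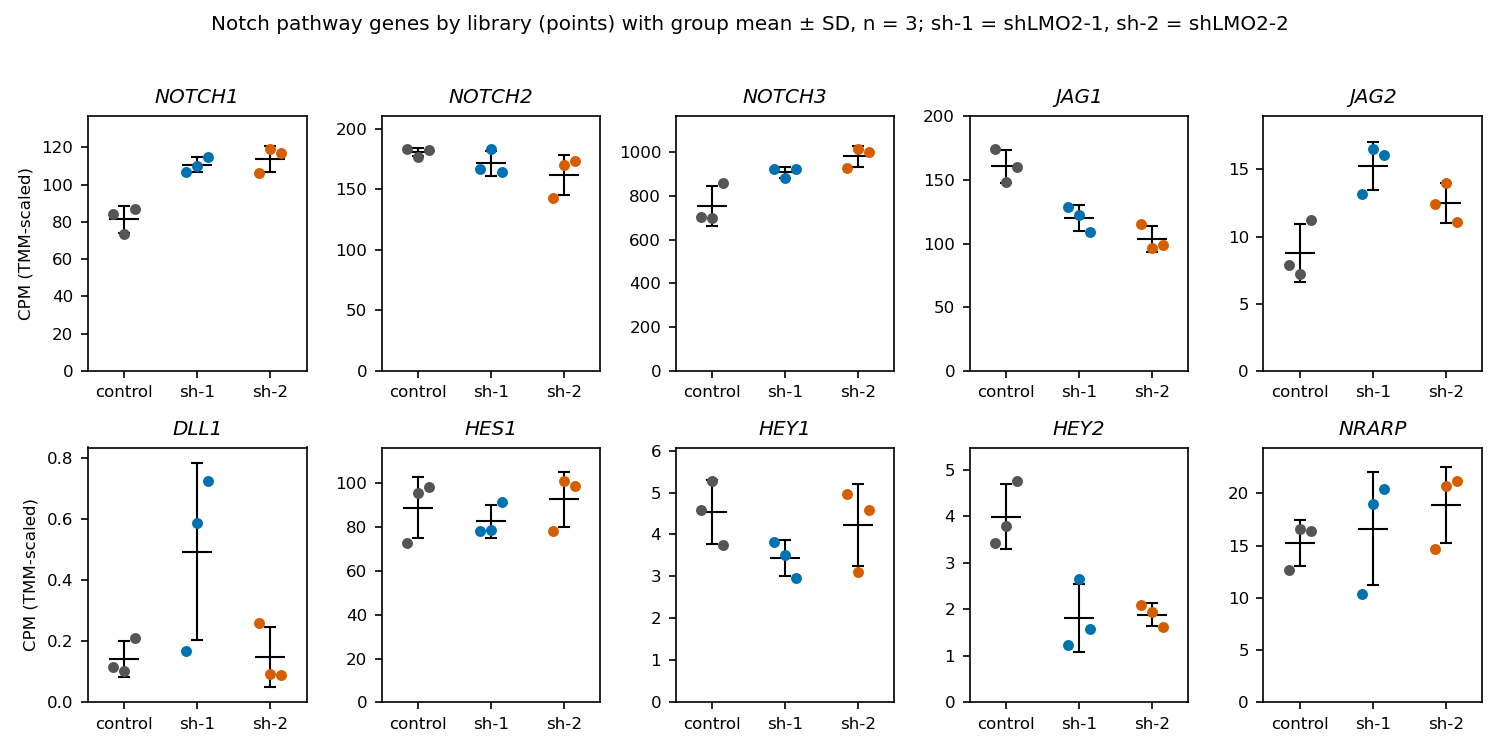
CPM (TMM-scaled, each axis from 0) of the 10 genes in control, shLMO2-1 (sh-1) and shLMO2-2 (sh-2), with a point per library and bars for the mean ± SD (n = 3). All 6 hairpin libraries lie above the 3 controls for NOTCH1 and NOTCH3 and below them for JAG1 and HEY2, while HES1, HEY1 and NRARP overlap.

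Among the receptors, NOTCH1 and NOTCH3 were higher in hairpin cells and NOTCH2 was not called. NOTCH1 (ENSG00000148400.10; GENCODE 29, GRCh38, chromosome 9, 136494433 to 136545786, minus strand) encodes a receptor known for its activating mutations in T-cell leukaemia. Its level was 84.2, 73.3 and 86.9 CPM in control replicates 1 to 3. It was 107, 110 and 115 CPM in shLMO2-1 and 106, 119 and 117 CPM in shLMO2-2. Every hairpin library lay above every control. The means were 81.5 ± 7.16, 111 ± 3.94 and 114 ± 7.01 CPM (SD, n = 3). NOTCH1 differed from control by a log2 fold change of 0.44 (SE 0.0784, edgeR adjusted p 0.00719) in shLMO2-1 and 0.48 (SE 0.0781, edgeR adjusted p 0.00445) in shLMO2-2. For the mean of both it was 0.46 (SE 0.0689, edgeR adjusted p 0.00207), a rise of 37.9%. NOTCH1 was called in both hairpins under each of the 17 alternative settings, with an adjusted p of at most 0.0336 in shLMO2-1 and 0.0298 in shLMO2-2. The antisense gene AL592301.1, which overlaps NOTCH1, had 0 counts in all 9 libraries.

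NOTCH3 (ENSG00000074181.8; chromosome 19, 15159038 to 15200981, minus strand) encodes a receptor with a shorter activation domain, best known from vascular smooth muscle and from a hereditary disease of small arteries. It had the most counts of the 10 genes. Control replicates 1 to 3 were at 705, 701 and 861 CPM. The shLMO2-1 libraries were at 922, 880 and 923 CPM and the shLMO2-2 libraries at 926, 1013 and 1001 CPM. The groups did not overlap, although control replicate 3 came within a short distance of the lowest shLMO2-1 library. The means were 756 ± 91.4, 908 ± 24.3 and 980 ± 46.9 CPM (SD, n = 3). NOTCH3 passed with a log2 fold change of 0.38 (SE 0.078, edgeR adjusted p 0.0152) in shLMO2-2. In shLMO2-1 it was 0.27 (SE 0.078, edgeR adjusted p 0.0605), which did not pass. The mean of both passed at 0.32 (SE 0.0684, edgeR adjusted p 0.0131). The shLMO2-1 difference of NOTCH3 passed on all libraries with no filter on low counts (0.27, edgeR adjusted p 0.00769) and with DESeq2 (0.26, adjusted p 0.027), and it passed without control replicate 3 (0.37, edgeR adjusted p 0.0124). The shLMO2-2 call was lost without shLMO2-2 replicates 2 (0.34, edgeR adjusted p 0.0707) or 3 (0.35, edgeR adjusted p 0.0596). The lowest and highest adjusted p among the alternatives were 0.00769 and 0.151 (shLMO2-1), and 2.6e-05 and 0.0707 (shLMO2-2).

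NOTCH2 (ENSG00000134250.19; chromosome 1, 119911553 to 120069626, minus strand) has partial near-identical copies, the NOTCH2NL genes. Reads can be divided between it and them, so the value of NOTCH2 is uncertain. Of these copies only NOTCH2NLA is given here. NOTCH2 was at 183, 177 and 182 CPM in control, 167, 183 and 164 CPM in shLMO2-1 and 143, 170 and 173 CPM in shLMO2-2. The shLMO2-2 libraries lay below all controls and the shLMO2-1 libraries overlapped them. The log2 fold change was -0.07 (SE 0.0788, edgeR adjusted p 0.615; 95% interval -0.25 to 0.10) in shLMO2-1 and -0.16 (SE 0.0786, edgeR adjusted p 0.237; 95% interval -0.33 to 0.01) in shLMO2-2. NOTCH2NLA was at a mean of 31.8 ± 1.49, 28.4 ± 5.22 and 27.8 ± 2.69 CPM (SD, n = 3). The sum of both genes differed from control by -0.09 in shLMO2-1 and -0.17 in shLMO2-2 on the log2 CPM scale, close to the values of NOTCH2 alone.

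**Figure D2:**
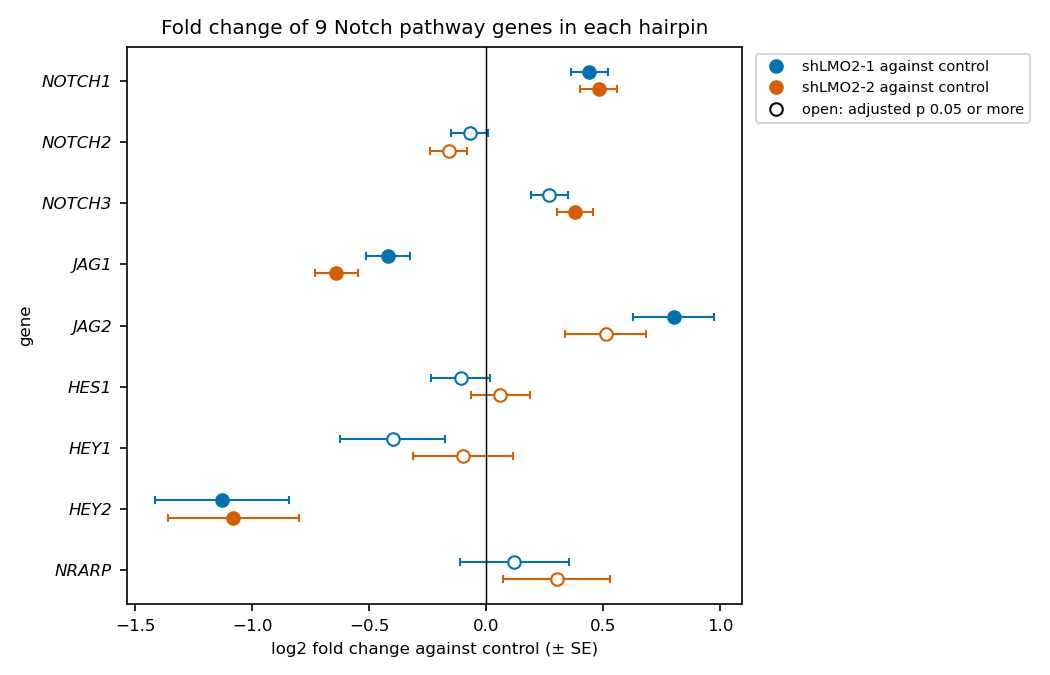
Log2 fold change against control with its standard error for the 9 tested genes, shLMO2-1 in blue and shLMO2-2 in orange, filled where the adjusted p was under 0.05. NOTCH1 (0.44 and 0.48), JAG1 (-0.42 and -0.64) and HEY2 (-1.13 and -1.08) are filled in both hairpins.

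The Jagged ligands moved in opposite directions. JAG1 (ENSG00000101384.12; chromosome 20, 10637684 to 10673999, minus strand), a ligand whose loss of a copy causes Alagille syndrome, was at 174, 148 and 160 CPM in control. It was at 129, 122 and 109 CPM in shLMO2-1 and at 115, 96.8 and 98.8 CPM in shLMO2-2. Every hairpin library lay below every control, and the shLMO2-1 and shLMO2-2 libraries overlapped. The means were 161 ± 12.9, 120 ± 10.5 and 104 ± 9.99 CPM (SD, n = 3). JAG1 fell, with a log2 fold change of -0.42 (SE 0.0924, edgeR adjusted p 0.0187) in shLMO2-1 and -0.64 (SE 0.0924, edgeR adjusted p 0.00269) in shLMO2-2. The mean of both was -0.53 (SE 0.0784, edgeR adjusted p 0.00201), a change of -30.8%. The difference between the hairpins was -0.21 (95% interval -0.42 to -0.01 before any adjustment) and did not pass over all genes (edgeR adjusted p 0.434). The shLMO2-1 call was lost without control replicate 3 (-0.43, edgeR adjusted p 0.0574), shLMO2-1 replicate 2 (-0.44, edgeR adjusted p 0.0639) or shLMO2-1 replicate 3 (-0.36, edgeR adjusted p 0.0765), over a range of 0.00015 to 0.0765 across the alternatives. The shLMO2-2 call held under all 17. The antisense gene AL050403.2 overlaps JAG1 and held at most 2 counts in any library.

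JAG2 (ENSG00000184916.8; chromosome 14, 105140981 to 105168824, minus strand) encodes the other Jagged ligand, known for its role in limb and craniofacial development. It was at 7.88, 7.18 and 11.2 CPM in control, 13.2, 16.5 and 16.1 CPM in shLMO2-1 and 12.4, 14 and 11.1 CPM in shLMO2-2. The shLMO2-1 libraries all lay above the controls, while the lowest shLMO2-2 library lay just below control replicate 3. The means were 8.76 ± 2.15, 15.3 ± 1.80 and 12.5 ± 1.42 CPM (SD, n = 3). JAG2 rose by a log2 fold change of 0.80 (SE 0.174, edgeR adjusted p 0.0183) in shLMO2-1. In shLMO2-2 it was 0.51 (SE 0.173, edgeR adjusted p 0.0918), which did not pass, and the difference between the hairpins was -0.29 (edgeR adjusted p 0.632). The mean of both was 0.66 (SE 0.153, edgeR adjusted p 0.0192). These calls moved with the setting and with single libraries. The shLMO2-2 difference of JAG2 passed with no filter on low counts (0.52, edgeR adjusted p 0.0217) and without control replicate 3 (0.73, edgeR adjusted p 0.0306). The call in the mean was lost without control replicate 1 (0.58, edgeR adjusted p 0.055) or control replicate 2 (0.53, edgeR adjusted p 0.0668). The shLMO2-1 call was lost without control replicate 2 (0.67, edgeR adjusted p 0.0563), shLMO2-1 replicate 2 (0.74, edgeR adjusted p 0.076) or shLMO2-1 replicate 3 (0.76, edgeR adjusted p 0.0648). Its lowest and highest adjusted p among the alternatives were 8.93e-05 and 0.076 (shLMO2-1), 0.0217 and 0.261 (shLMO2-2), and 0.000212 and 0.0668 (mean). AL512356.1 overlaps JAG2 on the same strand and held at most 9 counts.

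The ratio of JAG1 to JAG2 counts within a library does not depend on how libraries are scaled. This ratio and those that follow were chosen after the values of the genes were seen and are descriptions. JAG1 over JAG2 was 22.1, 20.7 and 14.3 in control replicates 1 to 3. It was 9.77, 7.40 and 6.75 in shLMO2-1 and 9.28, 6.93 and 8.87 in shLMO2-2, so both hairpin groups lay below all controls. The ratio of NOTCH1 to NOTCH2 counts was between 0.415 and 0.476 in control, between 0.602 and 0.701 in shLMO2-1 and between 0.677 and 0.741 in shLMO2-2. NOTCH3 over NOTCH2 was between 3.85 and 4.72 in control, 4.8 and 5.62 in shLMO2-1, and 5.79 and 6.48 in shLMO2-2. HEY1 over HEY2 was between 0.789 and 1.39 in control, 1.33 and 3.09 in shLMO2-1, and 1.6 and 2.83 in shLMO2-2, so here the shLMO2-1 libraries overlapped the controls. A ratio shows unequal change and not which gene of the pair moved.

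**Figure D3:**
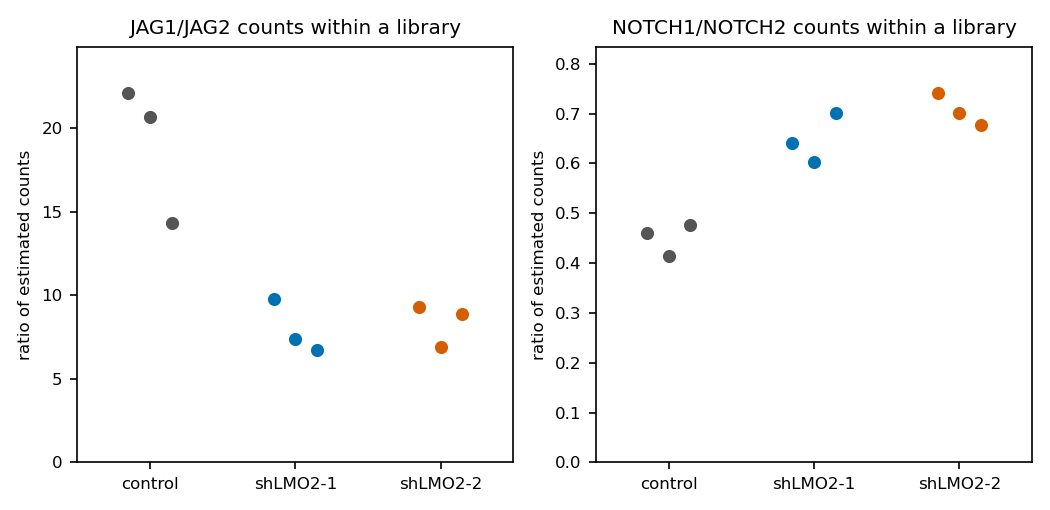
Ratio of estimated counts within each library for JAG1 over JAG2 (left) and NOTCH1 over NOTCH2 (right), with a point per library and axes from 0. The control libraries lie at 14.3 to 22.1 for the Jagged pair and at 0.415 to 0.476 for the receptor pair, apart from all 6 hairpin libraries in both.

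DLL1 (ENSG00000198719.8; chromosome 6, 170282206 to 170306565, minus strand), the Delta ligand, was barely detected. It had 2, 2 and 4 counts in control, 3, 10 and 11 counts in shLMO2-1 and 6, 2 and 2 counts in shLMO2-2. The 2 highest libraries were both shLMO2-1, and the third shLMO2-1 library lay among the rest. With no filter on low counts its log2 fold change in shLMO2-1 was 1.73 (SE 0.917, edgeR adjusted p 0.351), so no difference was detectable at this depth. DLL1 overlaps FAM120B on the opposite strand, which held 262 to 428 counts per library. The overlap is of whole gene spans, and whether their exons share sequence was not examined. Without strand, reads from any shared sequence cannot be told apart.

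Of the target genes, HEY2 was lower with both hairpins, and HES1, HEY1 and NRARP were not called. HEY2 (ENSG00000135547.8; chromosome 6, 125747664 to 125761269, plus strand) encodes a bHLH repressor known from heart and artery development. It was at 3.42, 3.79 and 4.76 CPM in control, from 59, 74 and 90 counts. It was at 1.24, 2.64 and 1.58 CPM in shLMO2-1 and at 2.09, 1.95 and 1.62 CPM in shLMO2-2, from 22 to 48 counts. The hairpin libraries all lay below the controls, with shLMO2-1 replicate 2 the closest to them. The means were 3.99 ± 0.690, 1.82 ± 0.729 and 1.88 ± 0.242 CPM (SD, n = 3). HEY2 fell, with a log2 fold change of -1.13 (SE 0.287, edgeR adjusted p 0.0353) in shLMO2-1 and -1.08 (SE 0.279, edgeR adjusted p 0.0376) in shLMO2-2. The mean of both was -1.11 (SE 0.236, edgeR adjusted p 0.0131), the largest size of change among the 9 tested members.

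The HEY2 calls rested on few counts and were lost in several fits. In shLMO2-1 the call was lost with only the groups compared (-1.13, edgeR adjusted p 0.07). It was also lost without control replicates 2 (-1.17, edgeR adjusted p 0.0682) or 3 (-0.99, edgeR adjusted p 0.123), shLMO2-1 replicates 1 (-0.91, edgeR adjusted p 0.109) or 3 (-1.05, edgeR adjusted p 0.114), or shLMO2-2 replicate 2 (-1.13, edgeR adjusted p 0.0571). In shLMO2-2 it was lost without control replicates 2 (-1.12, edgeR adjusted p 0.0621) or 3 (-0.93, edgeR adjusted p 0.129), or shLMO2-2 replicates 1 (-1.17, edgeR adjusted p 0.0715), 2 (-1.11, edgeR adjusted p 0.0994) or 3 (-0.99, edgeR adjusted p 0.124). In the mean it was lost without control replicate 3 (-0.96, edgeR adjusted p 0.0716). The lowest and highest adjusted p of HEY2 among the alternatives were 0.00531 and 0.123 (shLMO2-1), 0.00601 and 0.129 (shLMO2-2), and 0.00039 and 0.0716 (mean).

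HES1 (ENSG00000114315.3; chromosome 3, 194136145 to 194138732, plus strand), the bHLH repressor most often read as the output of Notch and the gene with 2 RBPJ core motifs printed above, was at 72.8, 95.2 and 98.3 CPM in control. It was at 77.9, 78.5 and 91.1 CPM in shLMO2-1 and at 78.1, 101 and 98.6 CPM in shLMO2-2. The 3 groups overlapped, and control replicate 1 was the lowest of the 9 libraries. The log2 fold change was -0.11 (SE 0.128, edgeR adjusted p 0.665; 95% interval -0.39 to 0.18) in shLMO2-1 and 0.06 (SE 0.127, edgeR adjusted p 0.819; 95% interval -0.22 to 0.34) in shLMO2-2. Without control replicate 1 the shLMO2-2 value turned to -0.07.

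HEY1 (ENSG00000164683.16), the bHLH relative of HEY2, was at 4.58, 5.28 and 3.75 CPM in control, 3.82, 3.52 and 2.97 CPM in shLMO2-1 and 4.96, 3.11 and 4.58 CPM in shLMO2-2. The 3 groups overlapped. Its log2 fold change was -0.40 (SE 0.223, edgeR adjusted p 0.308; 95% interval -0.89 to 0.09) in shLMO2-1 and -0.10 (SE 0.215, edgeR adjusted p 0.807; 95% interval -0.58 to 0.37) in shLMO2-2. The HEY2 values lie outside these HEY1 intervals. HEY2 had its own 95% intervals of -1.76 to -0.50 in shLMO2-1 and -1.69 to -0.47 in shLMO2-2. The intervals of the genes overlapped in both hairpins, and the difference between the genes was not tested.

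NRARP (ENSG00000198435.3; chromosome 9, 137300482 to 137302251, minus strand) encodes a small ankyrin-repeat protein that Notch induces and that dampens it in turn. It was at 12.7, 16.6 and 16.4 CPM in control, 10.4, 19.0 and 20.4 CPM in shLMO2-1 and 14.7, 20.7 and 21.2 CPM in shLMO2-2. The groups overlapped, and replicate 1 was the lowest library of each group. The log2 fold change was 0.12 (SE 0.234, edgeR adjusted p 0.809; 95% interval -0.39 to 0.63) in shLMO2-1 and 0.30 (SE 0.230, edgeR adjusted p 0.456; 95% interval -0.20 to 0.81) in shLMO2-2.

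Between the hairpins, 0 of the 9 members passed edgeR's test over all genes, where 0.768% of all genes tested passed (0.347% higher and 0.422% lower). At an unadjusted p under 0.05 the number was 1, JAG1, against 1552 of all 14709 genes tested. At an adjusted p under 0.05, DESeq2, limma-voom and every other alternative also called 0 of the 9. The interval of the difference was narrow for NOTCH1 (-0.13 to 0.21), NOTCH2 (-0.26 to 0.09) and NOTCH3 (-0.06 to 0.28). It was wide for HEY2 (-0.60 to 0.70), NRARP (-0.32 to 0.69), HEY1 (-0.19 to 0.78) and JAG2 (-0.66 to 0.08). Differences of that size between the hairpins could not be seen in these 4 genes. HES1 (-0.12 to 0.45) and JAG1 (-0.42 to -0.01) lay between in width. NOTCH3 was the only member in which the shLMO2-2 libraries did not overlap the shLMO2-1 libraries, a state found in 18.1% of all genes tested.

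Levels of different genes were compared as CPM per kb of the longest protein-coding transcript of GENCODE 29. NOTCH3 was the most abundant in control at 87.2 ± 10.5 CPM per kb, followed by HES1 at 56.3 ± 8.82, JAG1 at 27.0 ± 2.19, NOTCH2 at 15.9 ± 0.282, NOTCH1 at 8.75 ± 0.774 and NRARP at 8.61 ± 1.24 CPM per kb (SD, n = 3). HEY1 at 1.98 ± 0.334, JAG2 at 1.5 ± 0.368 and HEY2 at 1.49 ± 0.258 CPM per kb were lower, and DLL1 was the lowest at 0.0452 ± 0.0186 (SD, n = 3). The control libraries of NOTCH1 and NRARP overlapped on this scale, as did those of HEY1, JAG2 and HEY2, so these neighbours do not differ beyond their spread. In both hairpins JAG2 stood above HEY1 in this order, at 2.62 and 2.14 CPM per kb against 1.5 and 1.84, although the shLMO2-2 libraries of the pair overlapped. With the median transcript length in place of the longest, NOTCH2 rose to 35.8 CPM per kb in control, above JAG1, and the order of HEY2 and JAG2 was exchanged.

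**Figure D4:**
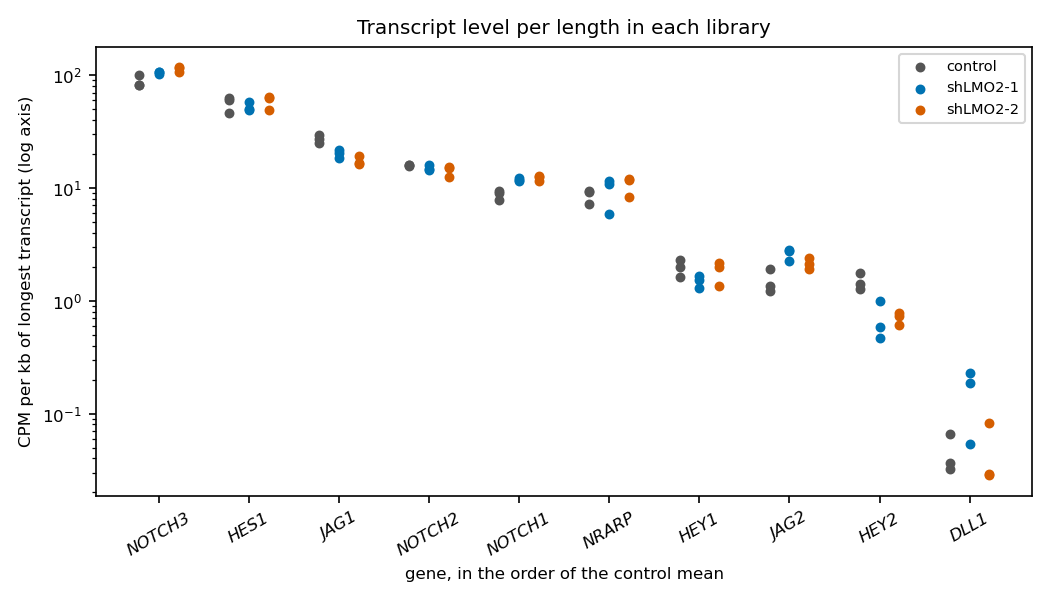
CPM per kb of the longest transcript (log axis) for the 10 genes in the order of the control mean, with a point per library coloured by group. NOTCH3 and HES1 lead with control means of 87.2 and 56.3, and DLL1 lies lowest at 0.0452.

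The rest of the pathway was read from a list of 77 further genes grouped by role, of which 69 passed the filter on low counts. DLK1, MFNG, DTX1, HES3, HES5, HEYL, PTCRA and IL2RA did not pass. In shLMO2-1, 5 of the 69 changed and all 5 were higher. In shLMO2-2, 4 changed, 2 higher and 2 lower, and in the mean of both 6 changed, 4 higher and 2 lower. Shares of 7.25%, 5.80% and 8.70% stand against backgrounds of 8.42%, 8.97% and 12.4%, so the list as a whole was close to or under the background. Its median log2 fold change in the mean was 0.02, against 0.00 over all genes tested, with members from -0.75 to 1.09. Between the hairpins 0 of the 69 passed edgeR's test, and DESeq2 called 1. An unadjusted p under 0.05 was found for 8 of the 69, against 1552 of all 14709 genes tested.

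HES2, a further bHLH repressor of the HES family, showed the largest change of the list. It was at 7.13, 9.64 and 13.8 CPM in control, 17.2, 20.4 and 27.0 CPM in shLMO2-1 and 17, 22.7 and 26 CPM in shLMO2-2. All hairpin libraries lay above all controls. The log2 fold change was 1.07 (SE 0.244, edgeR adjusted p 0.0225) in shLMO2-1, 1.1 (SE 0.241, edgeR adjusted p 0.0198) in shLMO2-2 and 1.09 (SE 0.218, edgeR adjusted p 0.00968) in the mean. The call in the mean held under all 16 alternatives. In shLMO2-1 it was lost without control replicate 2 (1.03, edgeR adjusted p 0.0634), shLMO2-1 replicate 2 (1.11, edgeR adjusted p 0.062) or shLMO2-1 replicate 3 (0.88, edgeR adjusted p 0.0848), over a range of 6.65e-09 to 0.0848. In shLMO2-2 it was lost without shLMO2-2 replicates 2 (1.07, edgeR adjusted p 0.0703) or 3 (0.95, edgeR adjusted p 0.0781), over a range of 1.38e-09 to 0.0781. In each group replicate 1 was the lowest library. Of the 4 tested genes of the other HES and HEY family list, HES2 alone was called (25% in the mean, against 12.4% of all genes tested). The members HES1 and HEY2 and this relative thus had values of -0.02, -1.11 and 1.09 in the mean of both hairpins.

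Among the corepressors that sit with RBPJ in the absence of Notch, 14 were tested and 2 were called in the mean. That share, 14.3%, was close to the 12.4% of all genes tested. TLE4, a Groucho-type corepressor that HES proteins recruit, was at 59.1, 51.5 and 57.4 CPM in control, 85.6, 82.5 and 70.6 CPM in shLMO2-1 and 73.4, 73.1 and 60.6 CPM in shLMO2-2. Its log2 fold change was 0.51 (SE 0.0997, edgeR adjusted p 0.0118) in shLMO2-1 and 0.30 (SE 0.0993, edgeR adjusted p 0.0853) in shLMO2-2, with 0.40 (edgeR adjusted p 0.0138) in the mean. The TLE4 calls were lost in shLMO2-1 without shLMO2-1 replicate 2 (edgeR adjusted p 0.0579) and in the mean without control replicate 2 (edgeR adjusted p 0.0507). HDAC2, a histone deacetylase of several repressor complexes, was at 409 to 440 CPM in control, 388 to 400 CPM in shLMO2-1 and 351 to 361 CPM in shLMO2-2. It was lower in shLMO2-2 (-0.26, SE 0.0507, edgeR adjusted p 0.0124) and in the mean (-0.18, edgeR adjusted p 0.0203). These HDAC2 calls were lost without shLMO2-2 replicate 2 (edgeR adjusted p 0.0585) and, in the mean, without control replicate 2 or with no filter (edgeR adjusted p of up to 0.0581). TLE2, a relative of TLE4, was higher in shLMO2-2 (0.36, edgeR adjusted p 0.0424), and this call was lost in 10 of the 17 alternatives, with an adjusted p of up to 0.141.

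Of the other reported targets, 8 were tested and 2 were called in the mean, both higher (25%, against 12.4% of all genes tested). In shLMO2-2, 0 of the 8 were called, against 8.97% of all genes tested. SOX9, a transcription factor of mammary progenitors, differed by 0.31 (SE 0.0674, edgeR adjusted p 0.0174) in shLMO2-1 and 0.22 (SE 0.0672, edgeR adjusted p 0.065) in shLMO2-2, with 0.27 (edgeR adjusted p 0.0147) in the mean. The SOX9 call in shLMO2-1 was lost in 4 of 17 alternatives (edgeR adjusted p of up to 0.0674), among them those without control replicate 2 and without shLMO2-1 replicates 1 or 2, and the call in the mean was lost without control replicate 2 (edgeR adjusted p 0.0527). CCND1, which encodes cyclin D1, differed by 0.37 (SE 0.088, edgeR adjusted p 0.0284) in shLMO2-1 and 0.16 (SE 0.0878, edgeR adjusted p 0.28) in shLMO2-2. The shLMO2-1 call of CCND1 was lost in 6 of 17 alternatives, with an adjusted p of up to 0.1. Its value in the mean, 0.27 (edgeR adjusted p 0.046), lost the call in 9 of 16 alternatives, with an adjusted p of up to 0.135. In another role, receptor turnover and inhibition, 11 genes were tested and 1 was called in the mean (9.09%, against 12.4% of all genes tested). This was CCNC, the cyclin of the kinase module that marks the freed Notch part for destruction. CCNC was lower in shLMO2-2 (-0.20, SE 0.0537, edgeR adjusted p 0.0397) and in the mean (-0.16, edgeR adjusted p 0.0424). Each of these CCNC calls was lost in 9 alternatives, with an adjusted p of up to 0.134 and 0.144.

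In 6 roles no gene was called against control by edgeR. These were the other receptor NOTCH4 (1 tested), the other ligands (3), receptor glycosylation and maturation (5), the cleavage proteases (8), ligand endocytosis (7) and the nuclear activation complex (8). In the mean of both hairpins their genes with an unadjusted p under 0.05 numbered 0, 0, 0, 1, 3 and 0. Over all genes tested that number was 4121 of 14709. RBPJ, the DNA-binding hub, was at 75.5 to 80.5 CPM in control, 79.7 to 85.3 CPM in shLMO2-1 and 74.4 to 74.6 CPM in shLMO2-2, with log2 fold changes of 0.11 (edgeR adjusted p 0.301) and -0.05 (edgeR adjusted p 0.642). It is named here as the factor whose motif was searched.

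**Figure D5:**
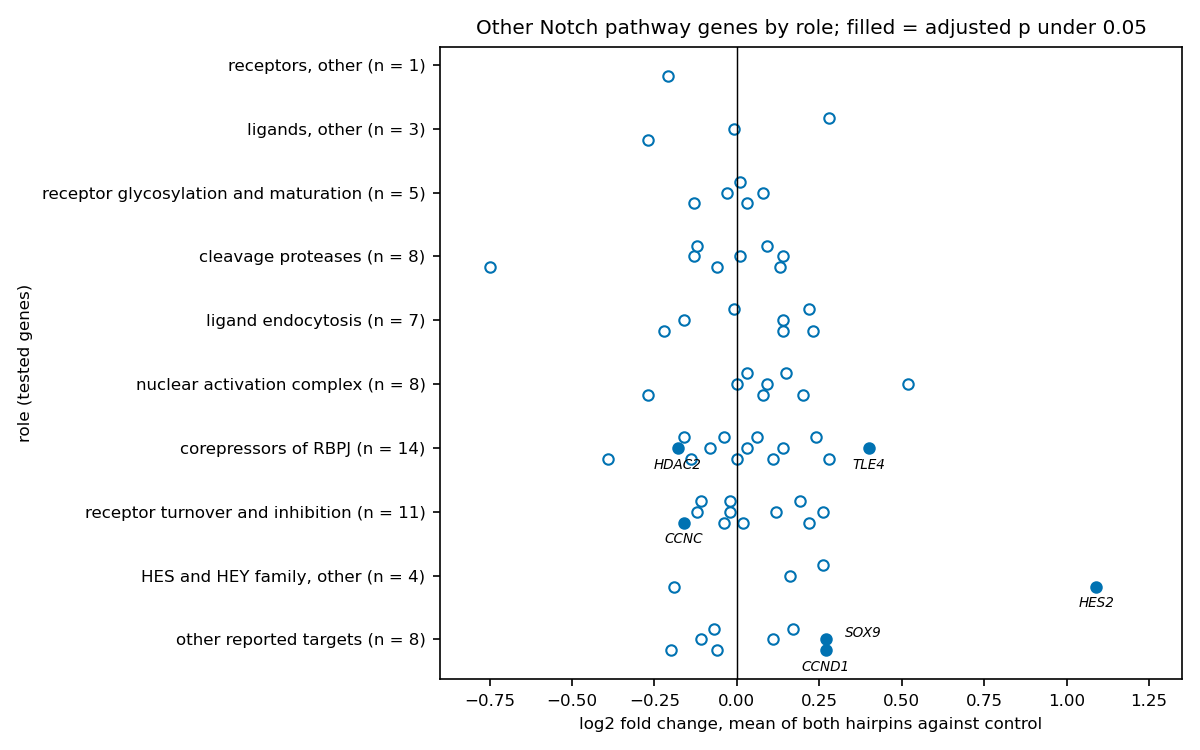
Log2 fold change in the mean of both hairpins against control for the 69 tested genes of the pathway list, in a row per role, filled and named where the adjusted p was under 0.05. HES2 stands at 1.09, and the other 5 filled genes lie between -0.18 and 0.40.

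The genes whose profiles over the 9 libraries were most like those of HEY2 and JAG2, the 2 called members with the largest change in the mean, were sought among 11031 genes with a mean of at least 5 CPM. Likeness was the root mean square difference of centred log2 CPM, and it is a description with no test. For HEY2, whose own profile spans 1.86 on that log2 scale with a root mean square of 0.589, the nearest were AP3B2 (0.259), DHRS2 (0.279) and TRPV4 (0.280). For JAG2, whose profile spans 1.19 with a root mean square of 0.39, they were FGD3 (0.151), EFNB2 (0.162) and CDR2L (0.164). A gene with a flat profile would lie at the member's own root mean square. The log2 fold changes of these genes in the mean were -1.14, -0.66 and -0.68 for the first 3 and 0.60, 0.61 and 0.48 for the others. Their directions follow from the choice of like profiles.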

How the data were processed

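Poly(A)-selected RNA of 9 libraries was sequenced, per the labels' protocols. The values are estimated counts per gene symbol, which the authors deposited as 1 table of 56809 genes, with 11.67% to 12.81% of a library's values not whole. Per the submitters' processing notes, Salmon 0.12, DESeq2 1.22.2 and GRCh38.p12 were used, with no role given. The use of strand is not given in the sources used here, so reads from sequence that antisense or overlapping genes share cannot be told apart. All symbols were found in GENCODE 29 (GRCh38), which gave positions and lengths.

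Counts were rounded and tested with edgeR 4.0.16 in R 4.3.3: filterByExpr (minimum count 10, minimum total 15), with LMO2 added back as the hairpins' target, TMM scaling, and a quasi-likelihood fit of all 9 libraries with a factor of 3 groups. Benjamini-Hochberg adjustment ran over the 14709 genes tested, which held 99.91% of the counts. Standard errors come from the fold change and its F statistic, and the 95% intervals of a fold change are not adjusted for the number of genes. Alternatives were median-of-ratios scaling, plain totals, no filter, 10 counts in every library, DESeq2 1.42.0, limma-voom (limma 3.58.1), only the groups compared, a replicate block, and leaving out each library. The test was tried on simulated data. Pairs of libraries within a group had a mean chi-square between 5.04 and 27.7 for each gene, more than counting noise gives, so none was counted as a copy.

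The members, lists, motifs and rules were chosen with earlier results of these data known. All 10 members, and pathway genes called in any of 4 comparisons (at most 12, by smallest p), were named. So were LMO2, NOTCH2NLA and overlapping genes. For the 2 called members with the largest change in the mean, the 3 genes of most like profile were also named. A called gene of the pathway list is not reported here by name. RBPJ, and genes that failed the filter, were added after their values were seen.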

Additional observations from a re-analysis of the deposited data

How the results depend on the processing

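The members called numbered 4 in shLMO2-1, 4 in shLMO2-2, 5 in the mean and 0 between the hairpins. Without single libraries they numbered 1 to 4, 2 to 4, 4 to 5 and 0. The pathway list numbered 5, 4, 6 and 0 called genes, and without single libraries 0 to 8, 0 to 4, 3 to 7 and 0. All genes called numbered 1239, 1320, 1823 and 113, and without single libraries 546 to 1397, 494 to 1243, 947 to 1592 and 38 to 239. With no filter on low counts, the list gave 8 in shLMO2-1 and 2 between the hairpins, and all genes 378 between the hairpins. DESeq2 gave 7 list genes in shLMO2-2 and 1 between the hairpins, and 316 genes in all between the hairpins. With only the groups compared, all genes numbered 695, 776 and 189 in shLMO2-1, shLMO2-2 and between the hairpins, and the list 2 in each hairpin against control.

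The labels do not say that replicate numbers pair the libraries, and the data did not show it for every pair: 6 of 9 same-numbered pairs, those of numbers 1 and 3, had deviations that correlated above 0.1 (range over all 9 pairs -0.0635 to 0.296), and 5 of 9 libraries correlated best with their own number in both other groups, a hint from the data and not the design. The replicate block gave 2214, 2377, 3024 and 257 genes in all, and 10 and 11 list genes in shLMO2-2 and the mean. With the block, NOTCH3 passed in shLMO2-1 (0.27, edgeR adjusted p 0.0165) and JAG2 in shLMO2-2 (0.52, edgeR adjusted p 0.045), so the members called were 5 in each hairpin. TLE4 (0.30, edgeR adjusted p 0.0295) and SOX9 (0.22, edgeR adjusted p 0.0355) passed in shLMO2-2, and TLE2 in the mean (0.29, edgeR adjusted p 0.0265).

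Signs turned only in fits without a library, and only for values that did not pass: NRARP in shLMO2-1 (-0.05 to 0.37) and between the hairpins (-0.07 to 0.35), HES1 in shLMO2-2 (-0.07 to 0.16) and in the mean (-0.16 to 0.06), HEY1 in shLMO2-2 (-0.25 to 0.06), and, between the hairpins, HEY2 (-0.17 to 0.42) and HES2 (-0.12 to 0.21). The cause of these shifts was not tested. DLL1, at 2 to 11 counts, and HEY2, at 22 to 90 counts, are limited by depth.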
